A study of Mus musculus with 4 samples.

Results

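The genes described here are 10 genes that move calcium out of the endoplasmic reticulum, back into it, or out of the cell. They were chosen by symbol, for what their proteins do, from 18854 genes measured by RNA sequencing in cultured mouse cortical neurons. The 10 were picked with earlier results of these data known. They are the ryanodine receptors Ryr1, Ryr2 and Ryr3, the IP3 receptors Itpr1 and Itpr2, the reticulum pump Atp2a2, the plasma membrane pumps Atp2b1, Atp2b2 and Atp2b4, and the exchanger Slc8a1. All 10 were in the table and all 10 passed the filter on low values, as did 16654 genes in all.

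The libraries came from wild-type neurons at 15 days in vitro. In 2 of them the cells had received Nutlin-3 for 2 days, a small molecule that keeps Mdm2 from binding p53 and so raises p53 protein, and the titles of the other 2 name DMSO, its solvent. Their treatment label says that they were not treated, and the sources used here do not give the strain, sex or age of the animals. Nothing in the labels says that the libraries of a group are separate cultures, so the p-values rest on a spread between libraries that may be technical only.

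As background, a neuron holds a large store of calcium in its endoplasmic reticulum. Ryanodine receptors open when calcium itself rises near them, and IP3 receptors open when a surface receptor has made phospholipase C release IP3, so both let stored calcium into the cytosol. SERCA pumps such as Atp2a2 refill the store at the cost of ATP, while plasma membrane pumps and sodium-calcium exchangers such as Slc8a1 carry calcium out of the cell, the pumps with high affinity and the exchanger with high capacity.

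The authors' values rest on 14584247 and 14968028 reads under DMSO and on 19065197 and 17716272 under Nutlin-3. Of the listed reads, 15.7% and 14.3% were mitochondrially encoded under DMSO but 8.98% and 10.01% under Nutlin-3. Nuclear protein-coding genes made up 73.6% and 75.9% under DMSO but 83.2% and 82.7% under Nutlin-3. CPM, the reads of a gene scaled to a fixed library total, trade off against each other, and the median log2 fold change of protein-coding genes was 0.09. Scaling these genes to their own total put that median at -0.04. All 5 neuron markers checked were present, Map2 among them at 3605 and 4121 CPM in DMSO and 3564 and 3602 CPM with the activator. Astrocyte markers were present too, with a summed level of 919 and 899 CPM in DMSO and 1004 and 1003 CPM with the activator. Of the 6 microglia markers, Cx3cr1, Tmem119 and C1qa were not analysed here, and the sum of the other three ran from 2.88 to 4.53 CPM.

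The pumps, the exchanger and Itpr1 rose, while the ryanodine receptors and Itpr2 stood lower. By limma on log2(CPM + 1), with Benjamini-Hochberg adjustment over all 16654 genes and calls at an adjusted p under 0.05, 6 of the 10 rose (Atp2a2, Atp2b1, Atp2b2, Atp2b4, Slc8a1 and Itpr1), Ryr3 fell and Ryr1, Ryr2 and Itpr2 did not pass. The background shares were 16.9% rising and 16.3% falling among all genes tested, and 21.2% and 7.19% among nuclear protein-coding genes. Among the 1959 protein-coding genes with a mean of at least 100 CPM, a range that holds 8 of the 10, 52.5% rose and 5.56% fell, so rises were common among genes this abundant. Both activator libraries lay above both DMSO libraries for the 6 that rose and below them for the other 4, where 67.6% of all genes tested and 65.0% of protein-coding genes had groups that did not overlap. Leaving out 1 library changed the counts: 2 rose without DMSO replicate 1, 4 without p53 activator replicate 1 and 1 without p53 activator replicate 2, and 2 fell without p53 activator replicate 1. On values scaled to the protein-coding total, 3 rose (Atp2a2, Atp2b2 and Atp2b4) and 4 fell (Ryr1, Ryr2, Ryr3 and Itpr2). After quantile normalization Atp2a2 and Slc8a1 rose and Ryr2 and Ryr3 fell, and in limma with no trend of the spread with expression Atp2a2 alone passed. With TMM in limma Atp2b1 and Slc8a1 did not pass, and Ryr1 fell beside Ryr3. The signs of all 10 were the same under each of the alternatives tried.

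**Figure D1:**
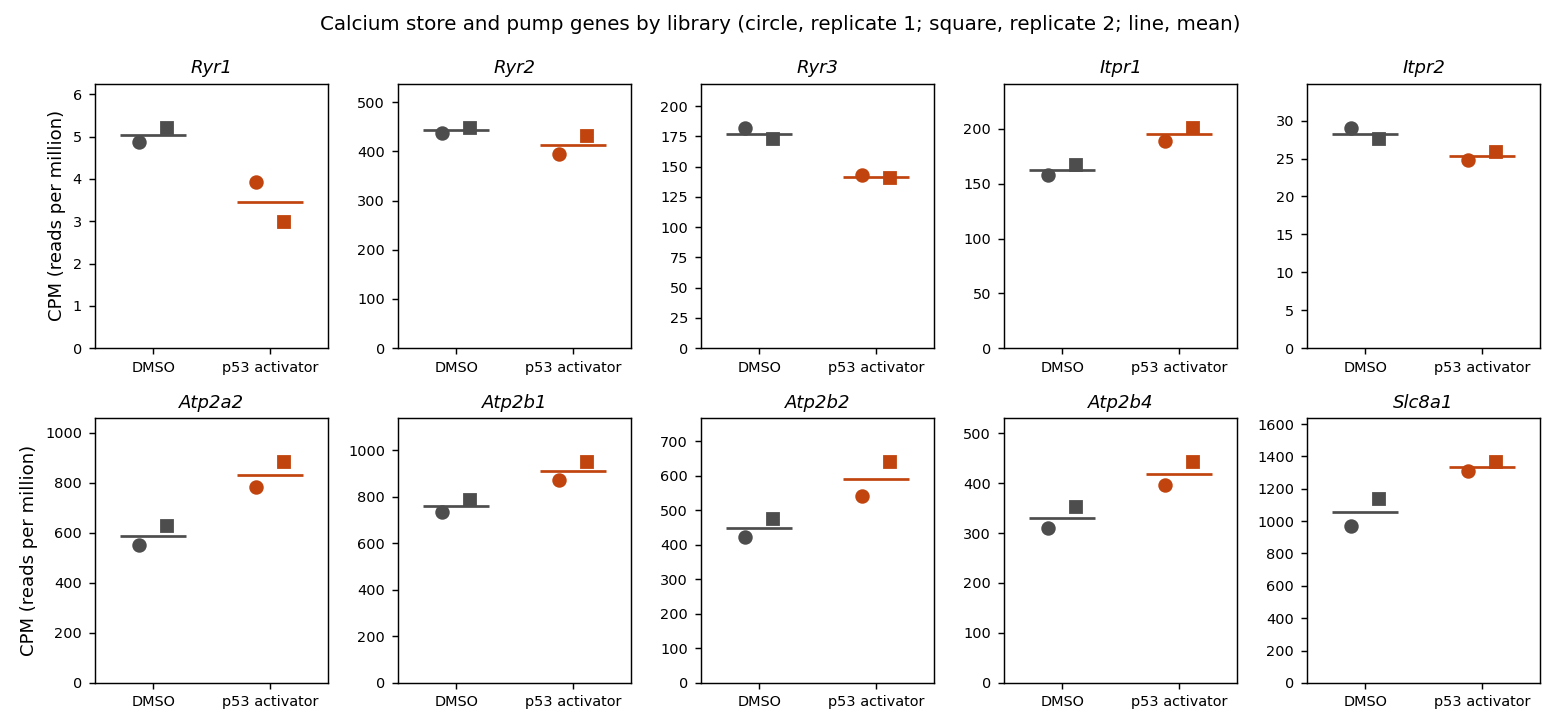
CPM of the 10 genes in each library (vertical axis from 0, a separate scale per gene), with DMSO on the left and the p53 activator on the right of each panel, circles for replicate 1, squares for replicate 2 and a line at the group mean. The activator points lie below the DMSO points for Ryr1, Ryr2, Ryr3 and Itpr2 and above them for the other six.

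The ryanodine receptors come first among the release channels. Ryr3, a paralog expressed in brain, measured 182 and 173 CPM under DMSO, and 143 and 141 CPM under Nutlin-3. Both activator values were lower than both DMSO values, and the spread within each group was small beside the gap. The mean fell from 177 ± 6.80 to 142 ± 1.76 CPM (SD, n = 2 each). This was a log2 fold change of -0.32 (SE 0.08; limma adjusted p = 0.000625). The call held whichever library was left out (adjusted p between 0.00274 and 0.0362), and it was lost in limma without a trend of the spread with expression (adjusted p = 0.0747). Aven, a protein-coding gene on the opposite strand, shares 916 exon bases with Ryr3 in GENCODE vM21 and stood at 3.39 to 4.41 CPM. Whether the counting used strand is not stated, so reads of the shared bases cannot be told apart.

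Ryr2, the paralog of heart and brain, was the most abundant of the ryanodine receptors per length. It measured 437 and 448 CPM under DMSO, and 395 and 432 CPM under Nutlin-3. The groups did not overlap, but the lower DMSO library and the higher activator library were close. The log2 fold change was -0.10 ± 0.08 (SE), with a 95% interval from -0.26 to 0.06 and a limma adjusted p of 0.364. It was -0.03 without p53 activator replicate 1 (adjusted p = 0.855) and -0.16 without p53 activator replicate 2 (0.303). Scaled to the protein-coding total, Ryr2 fell by 0.25 on the log2 scale (limma adjusted p = 0.00594), and it also fell after quantile normalization (-0.28, adjusted p = 0.00383) and when mitochondrially encoded genes were left out of the total (-0.19, adjusted p = 0.0485).

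Ryr1, the skeletal muscle paralog, was scarce, counted by 71 and 78 reads under DMSO but 75 and 53 under Nutlin-3. In CPM these were 4.87 and 5.21 against 3.93 and 2.99, with both activator libraries lower. The log2 fold change of -0.44 ± 0.18 (SE) had a limma adjusted p of 0.0516, just outside the threshold. It passed without p53 activator replicate 1 (-0.60, adjusted p = 0.0352) and under scaling to the protein-coding total (-0.59, adjusted p = 0.0206), and also with TMM or size factors in limma, without mitochondrially encoded genes in the total, and with robust moderation. It did not pass in DESeq2 (adjusted p = 0.228), after quantile normalization (-0.24, adjusted p = 0.294) or without p53 activator replicate 2 (-0.29, adjusted p = 0.360). Of 5 muscle markers, Tnnt2, Ckm and Myh1 were not analysed here, and the sum of Myh6 and Actc1 ran from 2.34 to 3.50 CPM.

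Of the IP3 receptors, Itpr1 rose and Itpr2 did not pass. Itpr1, the main neuronal IP3 receptor, measured 158 and 167 CPM under DMSO, and 189 and 201 CPM under Nutlin-3. Both activator libraries were higher, by more than the spread within groups. It rose with a log2 fold change of 0.26 ± 0.08 (SE; limma adjusted p = 0.00504). Limma lost the call without DMSO replicate 1 (adjusted p = 0.106) and without p53 activator replicate 2 (0.0917). It was also lost in limma under scaling to the protein-coding total (log2 fold change 0.11, adjusted p = 0.265) and without mitochondrially encoded genes in the total (0.0686). The same held after quantile normalization (0.244) and with no trend of the spread (0.12). With TMM, edgeR did not call Itpr1 (adjusted p = 0.0506) and limma did (0.0419). An antisense gene, Gm44040, shares 108 exon bases with Itpr1 and was at 7.61 and 6.15 CPM in DMSO and 4.51 and 3.16 CPM with the activator.

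Itpr2, an IP3 receptor known from astrocytes and other glia, measured 29.1 and 27.5 CPM under DMSO, and 24.8 and 25.9 CPM under Nutlin-3. The activator libraries were lower, with a log2 fold change of -0.15 ± 0.10 (SE), a 95% interval from -0.36 to 0.05 and a limma adjusted p of 0.260. Scaled to the protein-coding total, it fell by 0.30 (adjusted p = 0.0343). Of the 6 astrocyte markers tested, 0 were called by limma and 0 by edgeR. Of these markers 3 had a mean of at least 100 CPM, the range in which 52.5% of protein-coding genes rose. In limma 1 marker, Slc1a3, had an unadjusted p under 0.05, and it stood higher with the activator (log2 fold change 0.19). In bulk RNA, fewer cells of a type and less RNA per cell cannot be told apart. Itpr3, the remaining paralog, was not analysed here.

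Refilling of the store is the task of SERCA. Atp2a2, which encodes SERCA2, had the largest rise of the 10 genes, from 551 and 628 CPM in DMSO to 784 and 882 CPM with the activator. The lower activator library stood well above the higher DMSO library. The mean rose from 589 ± 54.9 to 833 ± 68.9 CPM (SD, n = 2 each), which is 1.41-fold, with a log2 fold change of 0.50 (SE 0.09; limma adjusted p = 3.82e-06). The call held under every alternative tried, with log2 fold changes from 0.33 to 0.59 and adjusted p from 2.59e-11 to 0.0416. Relative to the median protein-coding gene the rise was 0.40. The other SERCA genes, Atp2a1 and Atp2a3, were not analysed here. Pln, which encodes phospholamban, the small membrane protein that restrains SERCA2 in heart, fell from 5.76 and 4.94 CPM to 3.15 and 3.10 CPM (log2 fold change -0.62 ± 0.18 SE, limma adjusted p = 0.00553). The fall did not pass with DMSO replicate 1 left out (adjusted p = 0.105), in DESeq2 (0.0627) or after quantile normalization (0.0684).

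**Figure D2:**
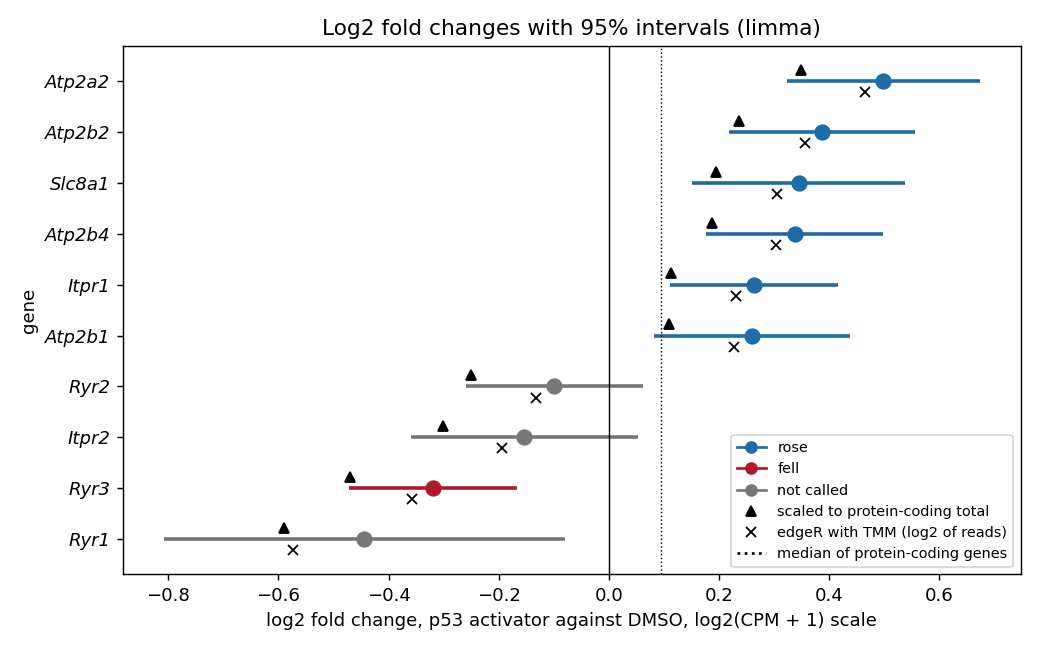
Log2 fold change of each gene, p53 activator against DMSO, on the log2(CPM + 1) scale (horizontal axis), with limma's 95% interval as a line, coloured by call. Triangles give limma on values scaled to the protein-coding total and crosses edgeR with TMM on reads, and the dotted line is the median of protein-coding genes at 0.09. The intervals of Ryr3 and of Ryr1, which was not called, lie wholly below 0, and Atp2a2 is the highest, at 0.50.

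All 4 genes of export at the plasma membrane among the 10 rose. Atp2b2, a pump enriched in neurons and hair cells, measured 424 and 476 CPM under DMSO, and 541 and 639 CPM under Nutlin-3. It rose 1.31-fold, with a log2 fold change of 0.39 ± 0.08 (SE; limma adjusted p = 0.000178). Its call needed p53 activator replicate 2, without which limma gave 0.27 (adjusted p = 0.0764).

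Atp2b4, the plasma membrane pump PMCA4, measured 309 and 353 CPM under DMSO, and 395 and 441 CPM under Nutlin-3. Every activator value exceeded every DMSO value, and the log2 fold change was 0.34 ± 0.08 (SE; limma adjusted p = 0.000618). It no longer passed with DMSO replicate 1 left out (adjusted p = 0.0638) or without p53 activator replicate 2 (0.0663).

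Atp2b1, the pump found in nearly all tissues, measured 736 and 785 CPM under DMSO, and 874 and 948 CPM under Nutlin-3. With Itpr1 it had the smallest of the 6 rises, a log2 fold change of 0.26 ± 0.09 (SE; limma adjusted p = 0.0184). Leaving out DMSO replicate 1 (adjusted p = 0.118) or either activator library (0.0696 for replicate 1 and 0.284 for replicate 2) ended the call, as did edgeR with TMM (0.0997) and scaling to the protein-coding total (0.11, adjusted p = 0.290).

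Slc8a1, the sodium-calcium exchanger NCX1, measured 972 and 1138 CPM under DMSO, and 1311 and 1362 CPM under Nutlin-3. Its DMSO libraries were the farther apart, and both stayed below the activator libraries. It rose 1.27-fold, with a log2 fold change of 0.35 ± 0.10 (SE; limma adjusted p = 0.00376). It did not pass with DMSO replicate 1 left out (adjusted p = 0.0959), nor with either activator library left out (0.0593 for replicate 1 and 0.113 for replicate 2) nor, narrowly, under scaling to the protein-coding total (0.19, adjusted p = 0.0503).

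Neuron markers moved as well: of the 5, 3 rose and Rbfox3 fell, and 3 of 4 excitatory and 3 of 4 inhibitory markers rose. Of these 13 markers, 9 had a mean of at least 100 CPM, the range in which 52.5% of protein-coding genes rose, and 7 of the 9 rose. Dlx1, the inhibitory marker that did not pass, lay below 0 (log2 fold change -0.26, unadjusted p = 0.0376, limma adjusted p = 0.0940). The summed level of the inhibitory markers was 526 and 557 CPM in DMSO and 690 and 678 CPM with the activator, that of the excitatory markers 472 and 529 CPM against 621 and 667 CPM, and that of the neuron markers 5732 and 6440 CPM against 6478 and 6591 CPM. Their part in the rises of the pumps and the exchanger was not tested.

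Ratios of genes within a library do not depend on how the library is scaled. Per read of Atp2a2 there were 0.795 and 0.713 reads of Ryr2 under DMSO but 0.504 and 0.490 under Nutlin-3. For Ryr3 these were 0.331 and 0.275 against 0.182 and 0.159. For Itpr1 the ratio moved less, from 0.286 and 0.266 to 0.241 and 0.228. In log2 the difference was -0.60 for Ryr2, -0.82 for Ryr3, -1.05 for Ryr1, -0.66 for Itpr2 and -0.23 for Itpr1. None of these ratios overlapped between groups, but 81.9% of all genes tested and 79.5% of protein-coding genes were lower per Atp2a2 read in both activator libraries, and Atp2a2 itself rose.

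The other ratios compared pairs of genes directly. There were 0.866 and 0.969 reads of Itpr1 per read of Ryr3 in DMSO and 1.32 and 1.43 with the activator, a log2 difference of 0.59. Itpr1 per Itpr2 went from 5.42 and 6.07 to 7.63 and 7.78. The ratio of Slc8a1 to Atp2b1 overlapped between groups, with 1.32 and 1.45 in DMSO and 1.501 and 1.436 with the activator. With 2 libraries a group, a two-sided exact permutation test cannot give a p under 0.333, so these ratios are a description of the 4 libraries.

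**Figure D3:**
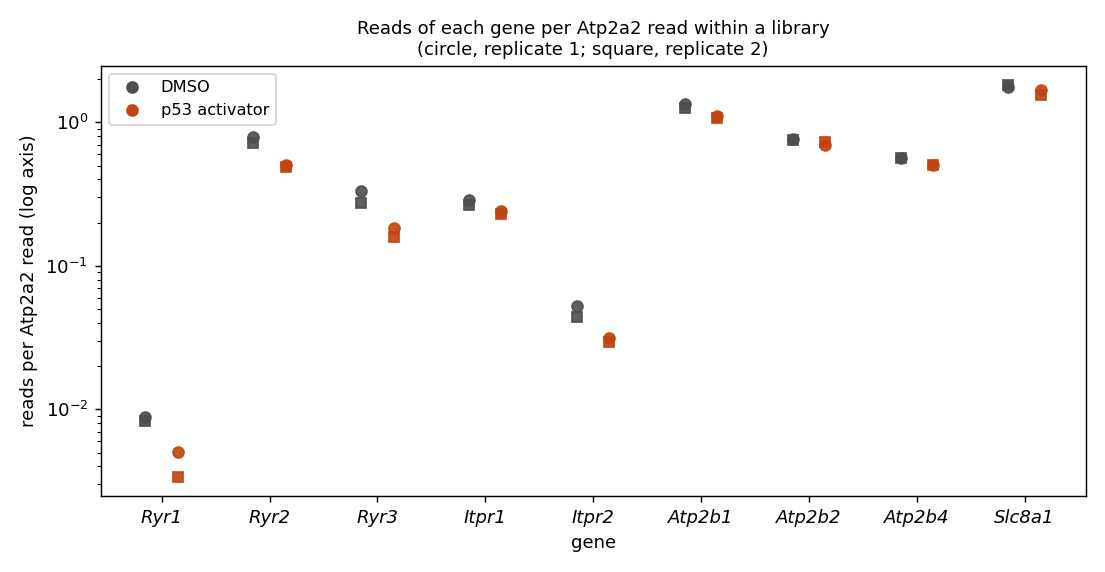
Reads of each gene per Atp2a2 read in the same library (log axis), DMSO in grey and the p53 activator in orange, circles for replicate 1 and squares for replicate 2. The activator points are lower for each gene, with the widest gaps for Ryr1, Ryr3 and Itpr2, and close to the DMSO points for Atp2b2.

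Levels of different genes were compared per kilobase of exon, using the union of exons in GENCODE vM21. The annotation used for counting is not named, so these lengths may not match it. The order of the genes and their shares of a family depend on them. In DMSO, Atp2a2 was highest at 96.9 ± 9.03 CPM per kb (SD, n = 2), followed by Slc8a1 (56.1 ± 6.23), Atp2b1 (49.96 ± 2.28), Atp2b2 (35.7 ± 2.93) and Atp2b4 (27.0 ± 2.53). The release channels were below them, with Ryr2 at 15.4 ± 0.259, Ryr3 at 9.34 ± 0.358, Itpr1 at 8.87 ± 0.365, Itpr2 at 1.91 ± 0.0739 and Ryr1 at 0.231 ± 0.0111 CPM per kb. Ryr3 and Itpr1 overlapped between libraries in DMSO, and the other neighbours in this order did not, though Slc8a1 at its lowest (51.7) was barely above Atp2b1 at its highest (51.6). With the activator the order was the same but for one exchange: Itpr1 at 10.7 ± 0.462 CPM per kb stood above Ryr3 at 7.47 ± 0.0927, without overlap.

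Shares within a family were computed from the levels per kilobase. Ryr3 made up 38.4% and 36.5% of the ryanodine receptor level in DMSO and 35.2% and 32.8% with the activator, and Ryr2 made up 60.7% and 62.5% against 64.0% and 66.6%. The summed level of the family was 25.01 and 24.89 CPM per kb in DMSO and 21.4 and 22.6 CPM per kb with the activator. Itpr1 made up 81.4% and 83.1% of Itpr1 and Itpr2 together in DMSO and 86.0% and 86.3% with the activator.

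Among the plasma membrane pumps, the share of Atp2b1 was 38.6% and 37.3% in DMSO and 36.8% and 35.6% with the activator. That of Atp2b4 was 20.2% and 20.8% against 20.7% and 20.6%, with groups that overlapped. The fourth pump, Atp2b3, was not among the 10 and was named here to complete its family. It made up 14.4% and 14.6% against 15.1% and 14.995%. These shares depend on exon unions of 4820 bases for Atp2b3 but 15218, 12612 and 12248 for Atp2b1, Atp2b2 and Atp2b4. The summed level of the 4 pumps was 125 and 138 CPM per kb in DMSO and 156 and 175 CPM per kb with the activator. Among the exchangers, Slc8a1 held 59.9% and 60.6% in DMSO and 60.7% and 57.95% with the activator, and Slc8a3 held 5.64% and 5.02% against 4.86% and 4.24%.

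**Figure D4:**
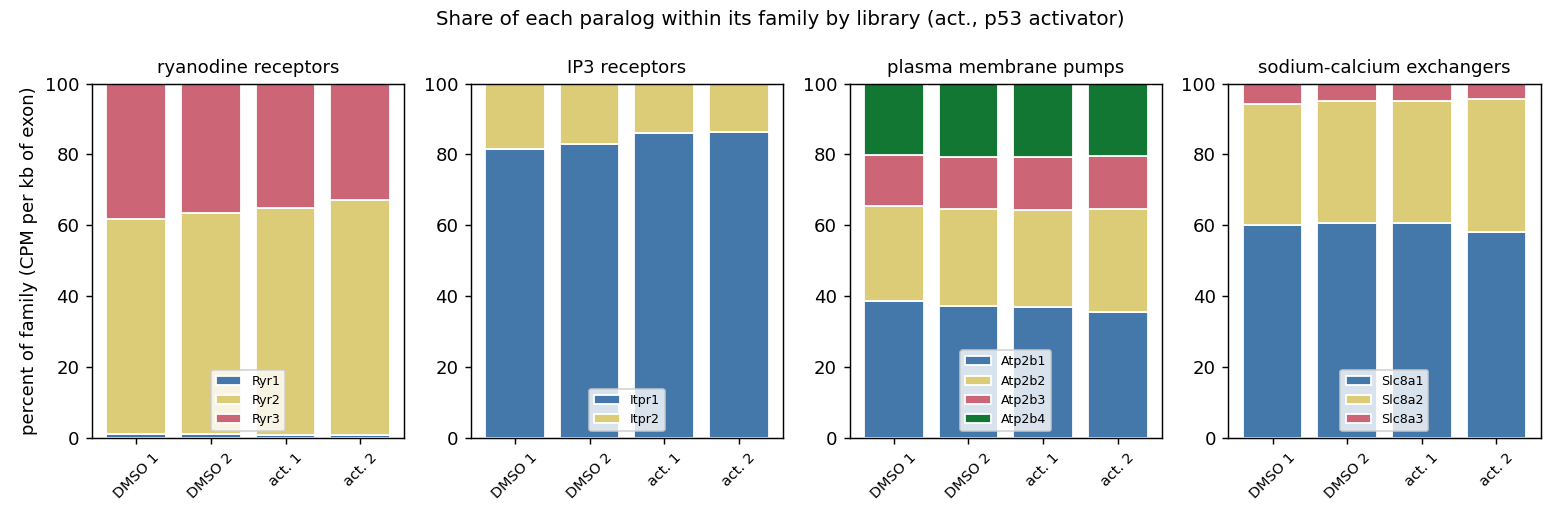
Share of each paralog in the summed level of its family, in percent of CPM per kb of exon (vertical axis), for each of the 4 libraries. Ryr3 takes a smaller share of the ryanodine receptors in the activator libraries (35.2% and 32.8%) than in DMSO (38.4% and 36.5%), while Atp2b4 stays between 20.2% and 20.8% of the plasma membrane pumps.

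The 10 genes differ in size. Ryr3 spans 586 kb and Ryr2 554 kb in GENCODE vM21, Itpr2 394, Slc8a1 365, Itpr1 338 and Atp2b2 299 kb, while Ryr1, Atp2b1 and Atp2b4 span 122, 112 and 102 kb and Atp2a2 49 kb. Among the 206 nuclear protein-coding genes of 500 kb or more the median log2 fold change was 0.02, with 19.9% rising and 18.9% falling. Among the 8679 such genes under 50 kb it was 0.11, with 21.4% rising and 5.98% falling. Between 200 and 500 kb the 692 genes had a median of 0.05, with 21.2% rising and 10.8% falling. Genes of like span went both ways among the 10: Slc8a1, Itpr1 and Atp2b2 rose and Itpr2 stood lower without passing the test. Atp2b1 and Atp2b4 rose and Ryr1 stood lower, also without passing. Ryr2 and Ryr3, the longest, both stood lower, and Atp2a2, the shortest, had the largest rise. A part of span in these differences was not tested.

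RefSeq promoter windows (GRCm38.p6, 250 bases before to 50 after a start site) were given for 7 of the 10 genes, 10 windows in all. The p53 half-site, searched on both strands, was found in 2 of these 10 windows and in 8.36% of all 32851 windows. The 2 windows are shown because the study activated p53. One belongs to Atp2b2, which rose, and is the middle of its 3 start sites. The other belongs to Ryr1, which stood lower without passing the test. Their 250 bases before the start are printed on the gene's strand, the minus strand in both cases, with the half-site in capitals.
Atp2b2, GRCm38.p6 chr6:113934682-113934931: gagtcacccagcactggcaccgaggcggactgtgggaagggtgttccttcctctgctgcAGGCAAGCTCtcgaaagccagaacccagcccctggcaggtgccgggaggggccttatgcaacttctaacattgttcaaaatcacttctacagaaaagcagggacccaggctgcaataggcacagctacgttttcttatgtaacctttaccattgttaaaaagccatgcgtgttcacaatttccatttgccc
Ryr1, GRCm38.p6 chr7:29125152-29125401: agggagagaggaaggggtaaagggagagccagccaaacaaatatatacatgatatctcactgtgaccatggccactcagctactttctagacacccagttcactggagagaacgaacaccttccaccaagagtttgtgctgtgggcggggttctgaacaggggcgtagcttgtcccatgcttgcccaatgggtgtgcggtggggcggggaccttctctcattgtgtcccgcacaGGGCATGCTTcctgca
The half-site starts 191 bases before the start site in Atp2b2 and 16 bases before it in Ryr1, and it overlaps no GC box in either. The GC box GGGCGG, on both strands, was found in 7 of the 10 windows and in 35.7% of all windows, the E-box CACGTG in 1 of 10 and 7.15%. A match is a description of the letters, and says nothing of binding.

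Of the other genes of calcium handling, 77 in 6 lists were tested, of which 30 rose and 1, Pln, fell, beside the shares of 21.2% and 7.19% among protein-coding genes. Of the 32 with a mean of at least 100 CPM, 20 rose (62.5%), where 52.5% of protein-coding genes this abundant did, and of the 45 under it 10 rose (22.2%), where 15.5% did; Pln, which fell, is among the latter, where 7.49% of protein-coding genes fell. The lists were written with earlier results of these data known, and the split was chosen after the values were seen. Their median log2 fold change was 0.19, against 0.26 for the 10 genes, 0.03 for all genes tested and 0.09 for protein-coding genes. Scaled to the protein-coding total, 12 rose and 1 fell, 18 rose and 2 fell in edgeR with TMM, and 15 rose without DMSO replicate 1. In limma with no trend of the spread 2 rose, Calb2 and Vdac1, and Pln fell; Calb2, which encodes the buffer calretinin, is named here after its values were seen.

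Export at the plasma membrane had 6 of 8 genes rising, with a median of 0.28. All 6 had a mean of at least 100 CPM, the range in which 52.5% of protein-coding genes rose. Nptn and Bsg, which encode neither pumps nor exchangers, are among the 6. Slc8a2, the brain exchanger NCX2, rose from 156 and 180 CPM to 208 and 249 CPM (log2 fold change 0.44 ± 0.08 SE). Slc24a3, an exchanger that also carries potassium, rose from 90.9 and 99.7 CPM to 121 and 131 CPM (0.40 ± 0.08). Slc24a4, the more abundant of the pair that did not pass, had a log2 fold change of 0.16. Atp2b3 rose by 0.38, from 86.7 and 97.0 CPM to 113 and 127 CPM.

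Of 15 partners of the release channels tested, 2 rose, both among the 8 with a mean of at least 100 CPM, and the median was 0.10. Fkbp1a, the immunophilin FKBP12 that binds ryanodine and IP3 receptors, rose from 145 and 145 CPM to 208 and 175 CPM (0.40 ± 0.08 SE, limma adjusted p = 3.75e-05). Ahcyl2, a relative of the IP3 receptor binding protein IRBIT, rose by 0.22, a call that was lost when any 1 library was left out (adjusted p between 0.0741 and 0.146). Homer1, a scaffold that ties IP3 receptors to metabotropic glutamate receptors, was the most abundant that did not pass, at 241 and 249 CPM against 263 and 258 CPM. Its log2 fold change of 0.09 became -0.06 when scaled to the protein-coding total.

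Store refill and store-operated entry had 3 rises among 10 tested, with a median of 0.20. Among the 3 with a mean of at least 100 CPM 2 rose, where 52.5% of protein-coding genes did. Among the 7 under it 1 rose, where 15.5% did. Stim1, the reticulum protein that senses an empty store, rose from 63.5 and 70.2 CPM to 76.1 and 81.1 CPM (log2 fold change 0.23 ± 0.08 SE, limma adjusted p = 0.0232). The rise did not pass with DMSO replicate 1 left out (adjusted p = 0.324), without p53 activator replicate 2 (0.176), in edgeR with TMM (0.0907), in DESeq2 (0.161) and under scaling to the protein-coding total (0.515). Tmbim6, a reticulum protein that lets calcium leak and restrains cell death, rose from 186 and 197 CPM to 235 and 234 CPM (0.29 ± 0.08 SE), and lost its call without DMSO replicate 1 (adjusted p = 0.0639) and under scaling to the protein-coding total (0.148). Atp2c1, the calcium pump of the Golgi, was at 222 and 229 CPM against 253 and 260 CPM and did not pass (log2 fold change 0.19, adjusted p = 0.0535). It passed narrowly at a minimum of 5 CPM, where fewer genes were tested (adjusted p = 0.0463).

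Of 15 calcium buffers and sensors 9 rose, with a median of 0.28. Among the 9 with a mean of at least 100 CPM 5 rose (55.6%), where 52.5% of protein-coding genes did. Among the 6 under it 4 rose, where 15.5% did. Calb1, the buffer calbindin, rose from 77.6 and 73.4 CPM to 110 and 90.5 CPM (log2 fold change 0.40 ± 0.08 SE), and the sensor Ncald, which encodes neurocalcin delta, from 215 and 209 CPM to 289 and 261 CPM (0.37 ± 0.08). The value for Calb1 was 0.26 without p53 activator replicate 1 and 0.54 without p53 activator replicate 2, and it passed in both.

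Of 11 genes of mitochondrial calcium 4 rose, with a median of 0.16. Among the 10 with a mean under 100 CPM 3 rose, where 15.5% of protein-coding genes did. The outer membrane channels Vdac1 and Vdac2 rose by 0.40 and 0.30 on the log2 scale. Vdac1 measured 311 and 325 CPM under DMSO, and 431 and 410 CPM under Nutlin-3. Vdac2 lost its call without DMSO replicate 2 (adjusted p = 0.0640) and under scaling to the protein-coding total (0.170).

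Of 18 genes that make or remove IP3, 6 rose, with a median of 0.15. Of the 6, 4 were among the 5 with a mean of at least 100 CPM and 2 among the 13 under it. In those ranges 52.5% and 15.5% of protein-coding genes rose. Gnaq, the G protein subunit that switches on phospholipase C beta, rose from 280 and 293 CPM to 368 and 372 CPM (log2 fold change 0.37 ± 0.08 SE, limma adjusted p = 0.000118). Its relative Gna11 rose by 0.27, and it did not pass with DMSO replicate 1 left out (adjusted p = 0.0929) or under scaling to the protein-coding total (0.231). Plcb1, the most abundant phospholipase C gene of the list, was at 196 and 190 CPM against 195 and 190 CPM, with overlapping groups and a 95% interval whose upper limit was 0.15.

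**Figure D5:**
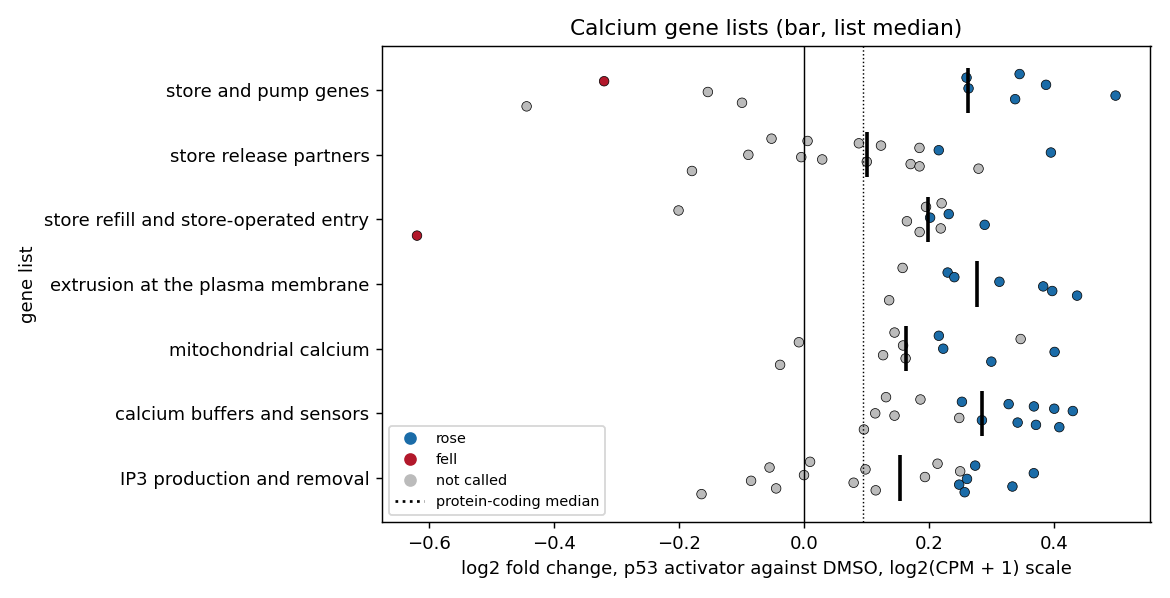
Log2 fold changes (horizontal axis, log2(CPM + 1) scale) of the 10 store and pump genes and of the tested genes of 6 calcium lists, 1 point per gene coloured by call, with a bar at each list's median and the dotted line at the protein-coding median of 0.09. The medians run from 0.10 for release partners to 0.28 for export at the plasma membrane and for buffers and sensors, and Pln is the one called gene below 0 outside the 10.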

How the data were processed

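The authors deposited 1 table of CPM for 18854 genes in 4 libraries of rRNA-depleted total RNA. The unit was read from the values, since every column consists of whole multiples of 1 step; dividing by it left a whole number of reads, to within 0.01, in 100% of values. The submitters' processing notes name TopHat2, Cufflinks 2.0.0 and mm9, without saying what each was for. What counted the reads, whether by strand, on which annotation and with which filter, was not named in the sources used here.

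The filter asked for 1 CPM or more in 2 or more libraries (16654 genes passed, 2200 did not). limma 3.58.1 (R 4.3.3) with a trend fitted the group difference of log2(CPM + 1), with 2 residual and 98.0 prior degrees of freedom. Fold changes of low genes are understated on this scale. The SE given here are moderated, set mostly by genes of like level and little by the spread of the gene itself. Calls were two-sided at an adjusted p under 0.05 (Benjamini-Hochberg). Alternatives used other pseudocounts, filters, scalings and variance models, edgeR 4.0.16, DESeq2 1.42.0, a replicate block and each library left out. On simulated data for this comparison (16654 genes, 10 runs, 200 genes changed), limma recovered 23.8% of 1.25-fold, 57.6% of 1.5-fold and 84.4% of 2-fold changes, and 3.70% of calls were false. The simulation changed far fewer genes than were called here, and it did not model the lower mitochondrial share under Nutlin-3. Its rates of recovery and of false calls therefore need not hold for these data. Replicates differed by more than sampling noise (chi-square per degree of freedom 4.52 in DMSO and 5.16 with the activator).

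Gene classes, spans and exon lengths came from GENCODE vM21, in which 15861 symbols matched 1 gene; its build differs from mm9, so no coordinates come from it. Promoters came from RefSeq. The 10 genes and the lists were chosen with earlier results of these data known. Named beside the 10 were the 2 called genes with the smallest p in each direction and the most abundant gene not called of each list, except where a gene is not reported here; others were chosen after their values were seen.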

Additional observations from a re-analysis of the deposited data

How the results depend on the processing

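Of 179 values of the 10 genes under 18 alternatives, 137 kept sign and side of the threshold, 31 lost a call, 11 gained one and 0 changed sign; Ryr1 was not tested at a minimum of 5 CPM. The numbers of the 10 that rose and fell, 6 and 1, became 2 and 2 after quantile normalization, 3 and 4 scaled to the protein-coding total, 1 and 0 in limma with no trend of the spread (2 fell at an unadjusted p under 0.05, and 1 in edgeR and in DESeq2), and 1 to 6 and 1 to 2 with 1 library left out; 3 fell without mitochondrial genes in the total, and 2 with TMM, size factors, robust moderation or the replicate block. With the replicate block 3705 genes rose and 3132 fell. Only 2 number pairs exist, with a correlation of 0.117 between the deviations of same-numbered libraries, which does not settle whether same-numbered libraries share a batch. With the block Ryr1 (limma adjusted p = 0.0259) and Atp2c1 (0.0113) passed. No other call changed among the 10 and the list genes named by smallest p or abundance. Markers and other genes named here were not followed under the block. By limma with no trend, Ryr3 had an adjusted p of 0.0747.

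Of all genes, 2811 rose and 2721 fell. Rises were 1632 after quantile normalization, 1822 with TMM, 554 scaled to the protein-coding total, 1280 without mitochondrial genes, 302 with no trend, 1869 in edgeR, 1307 in DESeq2 and 1138 to 2122 with 1 library left out. Falls were 1776 at 5 CPM, 1666 scaled to the protein-coding total, 1508 in DESeq2 and 1445 to 2468 with 1 library left out. Of the 77 other calcium genes, 30 rose and 1 fell. Rises were 14 after quantile normalization, 19 with TMM, 12 scaled to the protein-coding total, 17 without mitochondrial genes, 2 with no trend, 18 in edgeR and 15 to 23 with 1 library left out. Falls were 2 with no filter or in edgeR, 0 at 5 CPM, after quantile normalization or in DESeq2 (0, 3 and 2 at an unadjusted p under 0.05), and 0 to 1 with 1 library left out (0 without DMSO replicate 1, where 1 had an unadjusted p under 0.05).

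Among the uncalled list genes named for their abundance, Homer1 and Plcb1 changed sign. Homer1 went to -0.0473 after quantile normalization, -0.0621 scaled to the protein-coding total and -0.0031 without mitochondrial genes. Plcb1 went to -0.15 (quantile), -0.0436 (TMM), -0.0093 (size factors), -0.15 (protein-coding total), -0.0909 (without mitochondrial genes), -0.0347 (edgeR) and -0.0094 (DESeq2), and lay between -0.0226 and 0.0227 with 1 library left out. The cause of these moves was not tested. Depth limits Ryr1 most, with 53 to 78 reads a library.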
